A study of Homo sapiens with 15 samples.

Results

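The cytosolic ribosomal proteins were taken from the expression table by gene symbol: RPL or RPS followed by a number with an optional A or X, together with RPLP0, RPLP1, RPLP2 and RPSA. This rule gave 77 of the 25503 genes of the table, 46 of the large subunit and 31 of the small subunit. RNA was sequenced from AsPC-1 and Capan-1, both human pancreatic ductal adenocarcinoma cell lines, in 15 libraries that form 5 groups of 3. The AsPC-1 groups are a control transfection (siNC), B4GALT5 knockdown (siB4GALT5) and B3GNT3 knockdown (siB3GNT3), and the Capan-1 groups are siNC and siB3GNT3. All groups are labelled with an siRNA, and the labels used here give no siRNA sequence, dose or time. By its title the series concerns MHC class I on tumour cells. The titles name Capan-1 where the cell line field of the same libraries reads Capable-1, and the titles were followed. The labels do not say whether replicates were grown separately, so p-values measure only the spread between these libraries, which may be technical.

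Ribosomal proteins join ribosomal RNA in the nucleolus to build the 2 subunits of the ribosome, the small one that reads mRNA and the large one that forms peptide bonds. Cells make these proteins in near-equal amounts, and unassembled copies are degraded. In growing cells their mRNAs are among the most abundant, and many begin with a 5′ terminal oligopyrimidine tract (TOP), a C at the cap followed by a run of C and T. Through this tract mTORC1 and the RNA-binding protein LARP1 control translation of the whole set.

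That start was visible in the genome sequence of most members. A RefSeq promoter entry (GRCh38.p14) was found for 62 of the 77 genes. Of these, 46 (74.2%) had a C at the annotated start followed by at least 4 bases that were each C or T, on the transcribed strand. Among all 27305 genes with an entry, 1404 (5.14%) had such a start. The share was 28 of 38 in the large subunit and 18 of 24 in the small subunit. The windows below run from 10 bases before the start to 20 bases from it, and capitals mark the run of C and T that begins at the start base. They are given for members on which later results turn, first 9 with a tract.
RPL18, chr19:48619159-48619188, minus strand: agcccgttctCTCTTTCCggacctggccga
RPL11, chr1:23691796-23691825, plus strand: gctccgctttCTCTTCCTgctctccatcat
RPL13A, chr19:49487598-49487627, plus strand: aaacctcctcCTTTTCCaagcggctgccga
RPL24, chr3:101686699-101686728, minus strand: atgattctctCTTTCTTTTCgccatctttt
RPL27A, chr11:8682782-8682811, plus strand: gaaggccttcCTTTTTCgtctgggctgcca
RPS21, chr20:62387093-62387122, plus strand: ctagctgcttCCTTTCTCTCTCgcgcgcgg
RPS10, chr6:34426050-34426079, minus strand: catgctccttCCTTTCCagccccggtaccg
RPLP0, chr12:120201092-120201121, minus strand: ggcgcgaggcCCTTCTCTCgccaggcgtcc
RPL7A, chr9:133348208-133348237, plus strand: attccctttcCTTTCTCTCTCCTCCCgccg
The next 3 did not meet the rule at their annotated start.
RPL19, chr17:39200313-39200342, plus strand: agctctttccTTTCgctgctgcggccgcag
RPS26, chr12:56041908-56041937, plus strand: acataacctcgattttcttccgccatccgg
RPS15, chr19:1438386-1438415, plus strand: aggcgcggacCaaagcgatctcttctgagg
In RPL19 the annotated start lay inside a run of C and T and began with T, and in RPS26 and RPS15 a C and T stretch lay downstream of it. A tract is read here from an annotated start, and the start used in these cells was not measured.

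Both targets were checked in each library. B4GALT5 fell from 35.5 to 38.7 FPKM in AsPC-1 controls to 8.03 to 8.70 FPKM after its knockdown. B3GNT3 was at 22.5 to 23.8 FPKM in the AsPC-1 controls, and siB3GNT3 replicates 1 and 2 had 2.53 and 2.50 FPKM. The library labelled AsPC-1 siB3GNT3 replicate 3 held 24.2 FPKM, so its target was not reduced. Whether that library carries a wrong label or its knockdown failed cannot be told apart here. Over all genes its root mean square log2 distance to the 3 AsPC-1 siNC libraries was 0.14 to 0.15, against 0.48 and 0.49 to the other two libraries of its group. It was set apart, and values with it are given where they matter. In Capan-1 B3GNT3 fell from 13.2 to 13.7 FPKM to 1.32 to 1.84 FPKM. The commonest ratio of the lowest values put the read depth of each library at 0.949 to 1.03 times that of AsPC-1 siNC replicate 1, while the absolute depth is unknown. Of 6 epithelial markers (EPCAM, CDH1, KRT8, KRT18, KRT19, MUC1) 5 were at 1 FPKM or more in every AsPC-1 library and 6 in every Capan-1 library, while 3 acinar markers summed to at most 0.15 FPKM. In AsPC-1 the 6 summed to 2023 to 2079 FPKM with siNC, 1935 to 1951 FPKM in siB4GALT5, and 1642 and 1652 FPKM in siB3GNT3 replicates 1 and 2, with 2053 FPKM in replicate 3. In Capan-1 they summed to 4764 to 4987 FPKM in the controls and to 3039 to 3906 FPKM after knockdown. There 4 fibroblast markers summed to 56.5 to 62.4 and 79.1 to 83.7 FPKM. In AsPC-1 the same 4 summed to 80.2 to 92.2 FPKM with siNC and 69.8 to 90.9 FPKM in siB4GALT5. They summed to 79.3 to 86.5 FPKM in AsPC-1 siB3GNT3, replicate 3 included. Only 1 of the 4 fibroblast markers was at 1 FPKM or more in all libraries of each AsPC-1 group, and 2 in each Capan-1 group. Leukocyte and endothelial markers each summed to at most 3.12 FPKM, and the part of any marker in the results was not tested.

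Members spanned more than 4 orders of magnitude in FPKM, a level per length of transcript, but most sat in a narrow high band. The siNC median over members was 571 FPKM for AsPC-1 and 340 FPKM for Capan-1. In those groups 71 and 67 members lay at 100 FPKM or more. RPS2, which lines the mRNA entry channel of the small subunit, was highest in both, at 4048 ± 49.3 FPKM (SD, n = 3) and 2196 ± 129 FPKM. RPL8, RPLP0 and RPS18 were also among the highest in AsPC-1, and RPS18, RPL19 and RPLP0 in Capan-1. The libraries of RPLP0 and RPS18 overlapped in AsPC-1, as did those of RPL19 and RPLP0 in Capan-1, so these neighbours could not be ordered. Spearman's rho between the levels of both lines was 0.91 over the 77 genes, given as a description of genes measured in the same libraries.

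**Figure D1:**
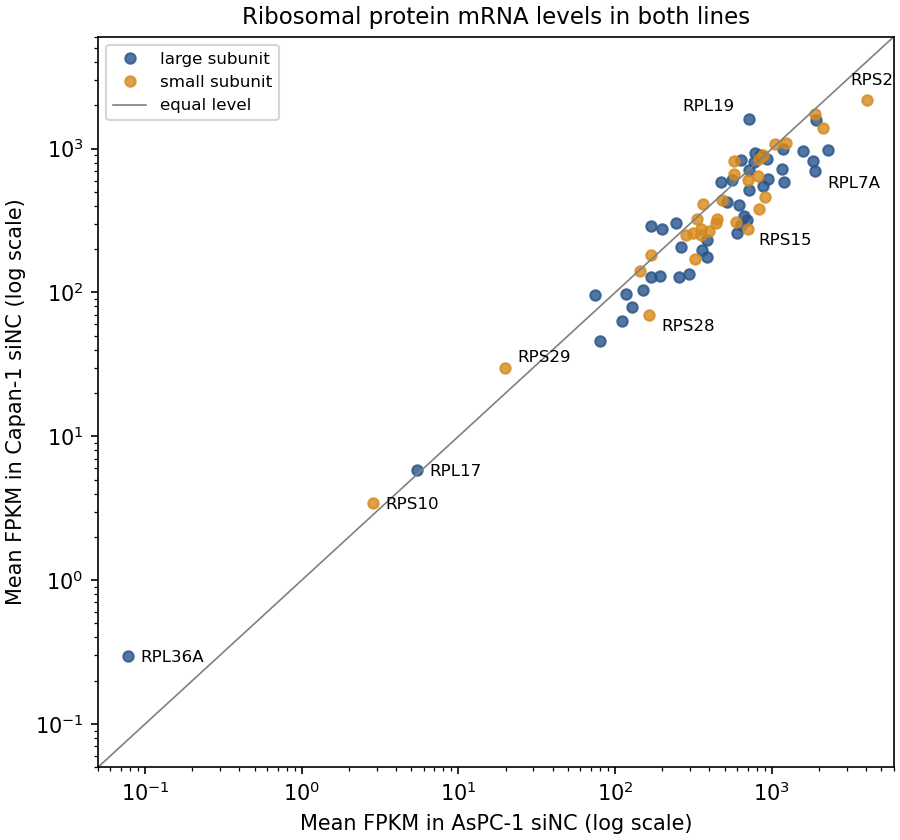
Mean FPKM of each of the 77 members in AsPC-1 siNC (horizontal, log scale) and Capan-1 siNC (vertical, log scale), 3 libraries each, with large subunit members in blue and small subunit members in orange; the line marks equal levels. Most points lie below the line, RPL19 lies well above it, and RPL36A, RPS10, RPL17 and RPS29 stand apart at the low end.

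The 5 lowest members of AsPC-1 siNC were RPL28 (74.5 ± 2.79 FPKM), RPS29 (19.7 ± 1.86), RPL17 (5.45 ± 0.26), RPS10 (2.86 ± 0.16) and RPL36A. In Capan-1 siNC RPL14 (46.3 ± 1.69 FPKM) took the place of RPL28. Over all libraries RPL36A was at 0 to 0.615 FPKM, RPS10 at 1.44 to 4.13 FPKM and RPL17 at 4.96 to 8.57 FPKM, far below the other members. RefSeq lists a readthrough gene for each of these, RPL36A-HNRNPH2, RPS10-NUDT3 and RPL17-C18orf32, and none of these is a row of the table used here. Whether their reads were given to another gene was not tested. RPL36A did not pass the filter for tests, which left 76 members. Reads shared with the processed pseudogenes that ribosomal protein genes are known for also make single levels less certain than changes between libraries.

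The share of all FPKM that fell on members was higher in both AsPC-1 knockdown groups than in siNC. The 3 AsPC-1 siNC libraries gave 11.9%, 11.8% and 12.2% and the siB4GALT5 libraries 12.8%, 13.5% and 13.7%. Replicates 1 and 2 of siB3GNT3 gave 13.4% and 13.1%, and the library labelled replicate 3 gave 12.2%, inside the siNC range. Without that library neither knockdown group overlapped siNC. The two-sided exact permutation p was 0.1 for siB4GALT5 (3 libraries against 3) and 0.2 for siB3GNT3 (2 against 3). Each is the smallest that these numbers allow when the smaller tail is doubled. No outcome could thus fall under 0.05, and members were chosen with earlier results known. These tests and the like ones below therefore decide nothing about the share. The 13 mitochondrially encoded mRNAs took a smaller share in the same libraries, 18.1 to 19.5% and 19.7 to 20.1% against 23.8 to 24.8% in siNC. With those mRNAs out of the denominator, siNC ranged from 15.7 to 16.0%, siB4GALT5 from 15.9 to 17.0% with overlap (exact permutation p = 0.3), and siB3GNT3 replicates 1 and 2 gave 16.8% and 16.3% (exact permutation p = 0.2). In Capan-1 the share was 9.95 to 10.4% with siNC and 9.90 to 10.2% with siB3GNT3, which overlapped (exact permutation p = 0.8). In bulk RNA of this kind, a lower share from fewer cells of a kind and from less RNA per cell cannot be told apart.

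**Figure D2:**
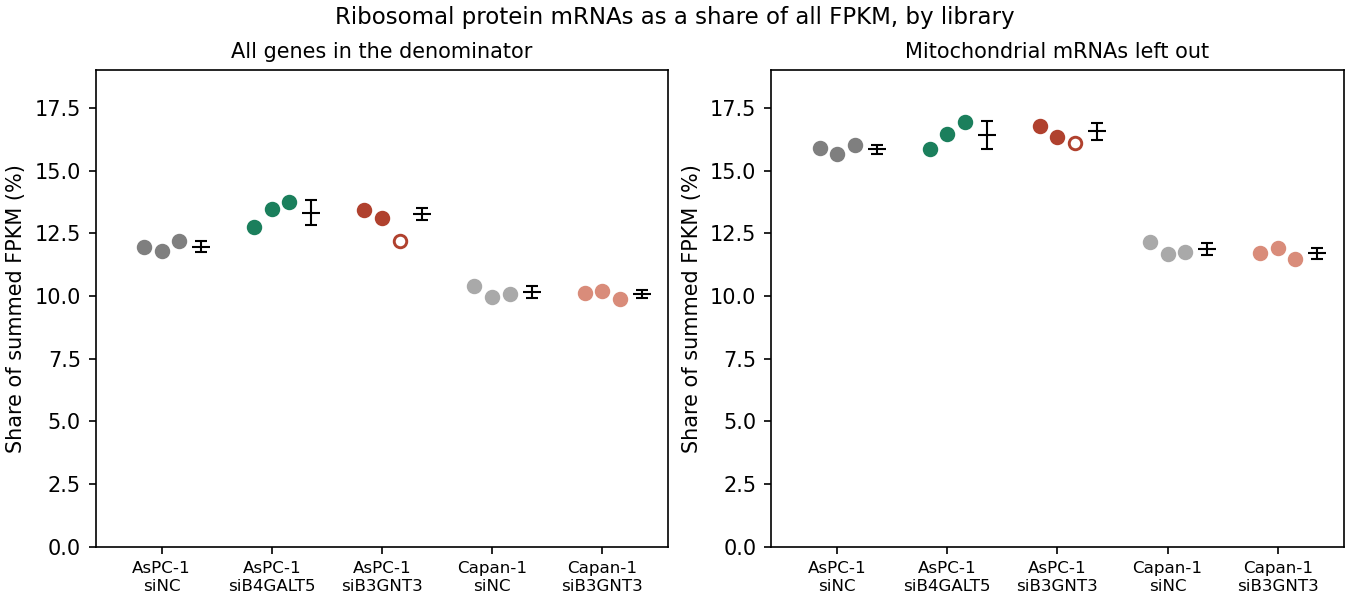
Summed FPKM of the 77 members as a percentage of the summed FPKM of all genes (left) and of all genes but the 13 mitochondrially encoded mRNAs (right), one point per library; bars give mean and SD without the open point, which is the library labelled AsPC-1 siB3GNT3 replicate 3. On the left both AsPC-1 knockdown groups lie above siNC, and on the right siB4GALT5 overlaps siNC.

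In the knockdown comparisons the large and small subunit stayed close. Their medians lay further apart between the lines in siNC, at -0.53 and -0.22 (Capan-1 minus AsPC-1, log2). Summed large subunit FPKM were 1.28 to 1.36 times summed small subunit FPKM in each of the 15 libraries. The median log2 change of the large subunit exceeded that of the small subunit by -0.01 after B4GALT5 knockdown, by -0.02 after B3GNT3 knockdown in AsPC-1 and by less than 0.01 in Capan-1. Leaving out AsPC-1 siB3GNT3 replicate 1 turned the second of these to 0.04, so it has no settled sign.

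**Figure D3:**
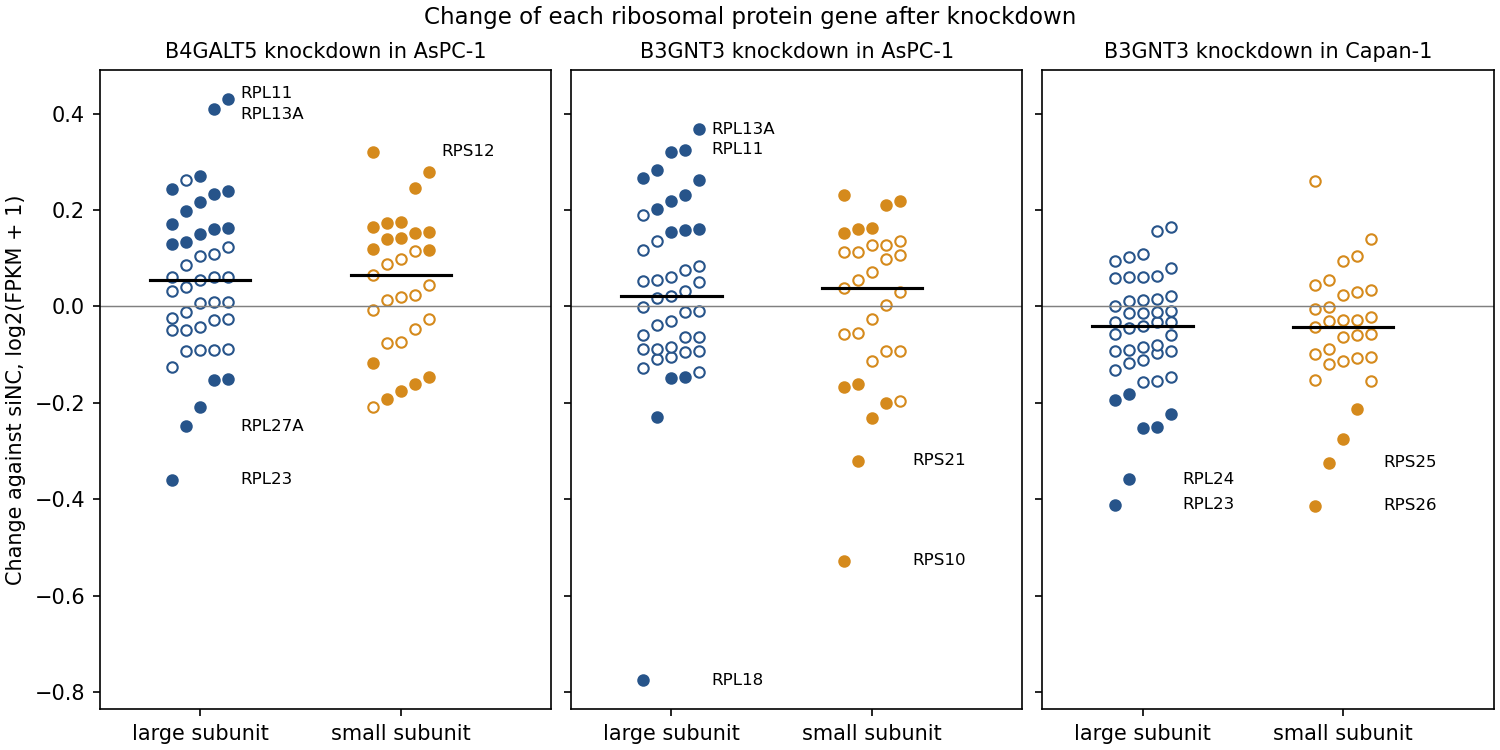
Change of each of the 76 tested members against siNC, as a difference of log2(FPKM + 1), in the 3 knockdown comparisons, with the large subunit in blue and the small subunit in orange; filled points had an adjusted p under 0.05 and bars mark the subunit median. The medians of both subunits lie within 0.02 of each other in each panel, while RPL18 lies far below the rest after B3GNT3 knockdown in AsPC-1.

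After B4GALT5 knockdown in AsPC-1 most members changed little, with RPL11 and RPL13A highest and RPL23 lowest. The median log2 change of the 76 members was 0.06, as was that of all 10775 genes tested. The SD of the changes was 0.15 over members, 0.46 over all genes and 0.44 over 345 other genes at least as high as the 10th percentile of member levels. A gene was called at an adjusted p under 0.05 (limma, Benjamini-Hochberg), which 36 of 76 members (47.4%) and 58.2% of all genes met. Of the members 26 rose and 10 fell, where 35.2% of all genes rose and 23% fell, and no member changed 2-fold. The knockdown and control libraries did not overlap in 43 members, against 64% of all genes. The 345 other high genes had a median of -0.11, with 22.9% risen and 44.9% fallen. This split moved with the scaling: median-ratio scaling gave 10 risen and 18 fallen, and a common sum gave 40 and 2, as the median of all genes moved to -0.01 and 0.14. Of all genes 3102 rose and 3131 fell among 10756 with the first, and 4576 and 1881 among 10786 with the second. The number called was 19 without siNC replicate 1, 16 without siNC replicate 2, 22 without siB4GALT5 replicate 2, and 13 with the library labelled siB3GNT3 replicate 3 in the fit.

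RPL11 rose most. This large subunit protein forms the 5S particle with RPL5 and 5S rRNA, and the free particle binds MDM2 and stabilises p53. RPL11 was at 467, 463 and 493 FPKM in siNC, and siB4GALT5 gave 614, 666 and 638 FPKM, groups that did not overlap. The log2 change was 0.43 ± 0.045 (SE; adjusted p = 4.4e-05, limma). RPL13A, which can leave the ribosome to repress translation of inflammatory mRNAs, went from 1162, 1176 and 1192 FPKM to 1503, 1664 and 1529 FPKM, again without overlap (0.41 ± 0.044, adjusted p = 5.4e-05, limma). RPS12 was next in size, from 536 to 607 FPKM in siNC to 669 to 765 FPKM (0.32 ± 0.074, adjusted p = 0.0046, limma).

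RPL23 fell most. It sits on the face of the large subunit that meets the small one and binds the anti-association factor eIF6. It was at 167, 164 and 176 FPKM in siNC and at 128, 136 and 131 FPKM in siB4GALT5, so each knockdown library was below each control. The log2 change was -0.36 ± 0.047 (adjusted p = 0.00017, limma). RPL24, which reaches from the large to the small subunit, was lower by less, at 823 to 843 FPKM against 701 to 770 FPKM (-0.21 ± 0.045, adjusted p = 0.0032, limma). RPL27A fell from 149 to 152 FPKM to 114, 120 and 147 FPKM, with 1 library close to siNC (-0.25 ± 0.082, adjusted p = 0.026, limma). Its call was lost without siNC replicate 1, 2 or 3 or siB4GALT5 replicate 1 or 2, with adjusted p up to 0.093 and changes from -0.26 to -0.18. RPL11, RPL13A, RPS12, RPL23 and RPL24 kept their calls with each library left out.

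To find single genes that left the family, each library was centred on the median level of the members and the fit repeated. A gene left where its centred difference was at least 0.3 with an adjusted p under 0.05 and without overlap of the groups. The members' centre was subtracted from all genes alike, so members lie near it by construction. Shares of all genes under this rule, here and below, are thus no neutral background for the members' counts. By this rule 7 of 76 members left after B4GALT5 knockdown, all downward, against 42.1% of all genes. They were RPL23 (-0.50), RPL27A (-0.39), RPL24 (-0.35), RPS7 (-0.34), RPS24 (-0.32), RPS27 (-0.30) and RPS21 (-0.35), here as centred log2 differences. RPS21 was not called without centring. With each library left out its uncentred change was -0.26 to -0.13, and it was called in 2 of 8 such fits. The centre itself moved more than the median change, so a second centring was added after the data were seen, on the median over members of each gene's deviation from its own mean. With it 4 members left, RPL23 (-0.41) and RPL27A (-0.30) downward and RPL11 (0.38) and RPL13A (0.36) upward. RPL23 and RPL27A left under both centrings. With each library left out the first centring gave 5 to 10 members. RPS27 no longer left without siNC replicate 2 or siB4GALT5 replicate 1 or 3, at -0.29 to -0.24, and RPS24 without siNC replicate 2 or siB4GALT5 replicate 1, at -0.29 and -0.28.

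**Figure D4:**
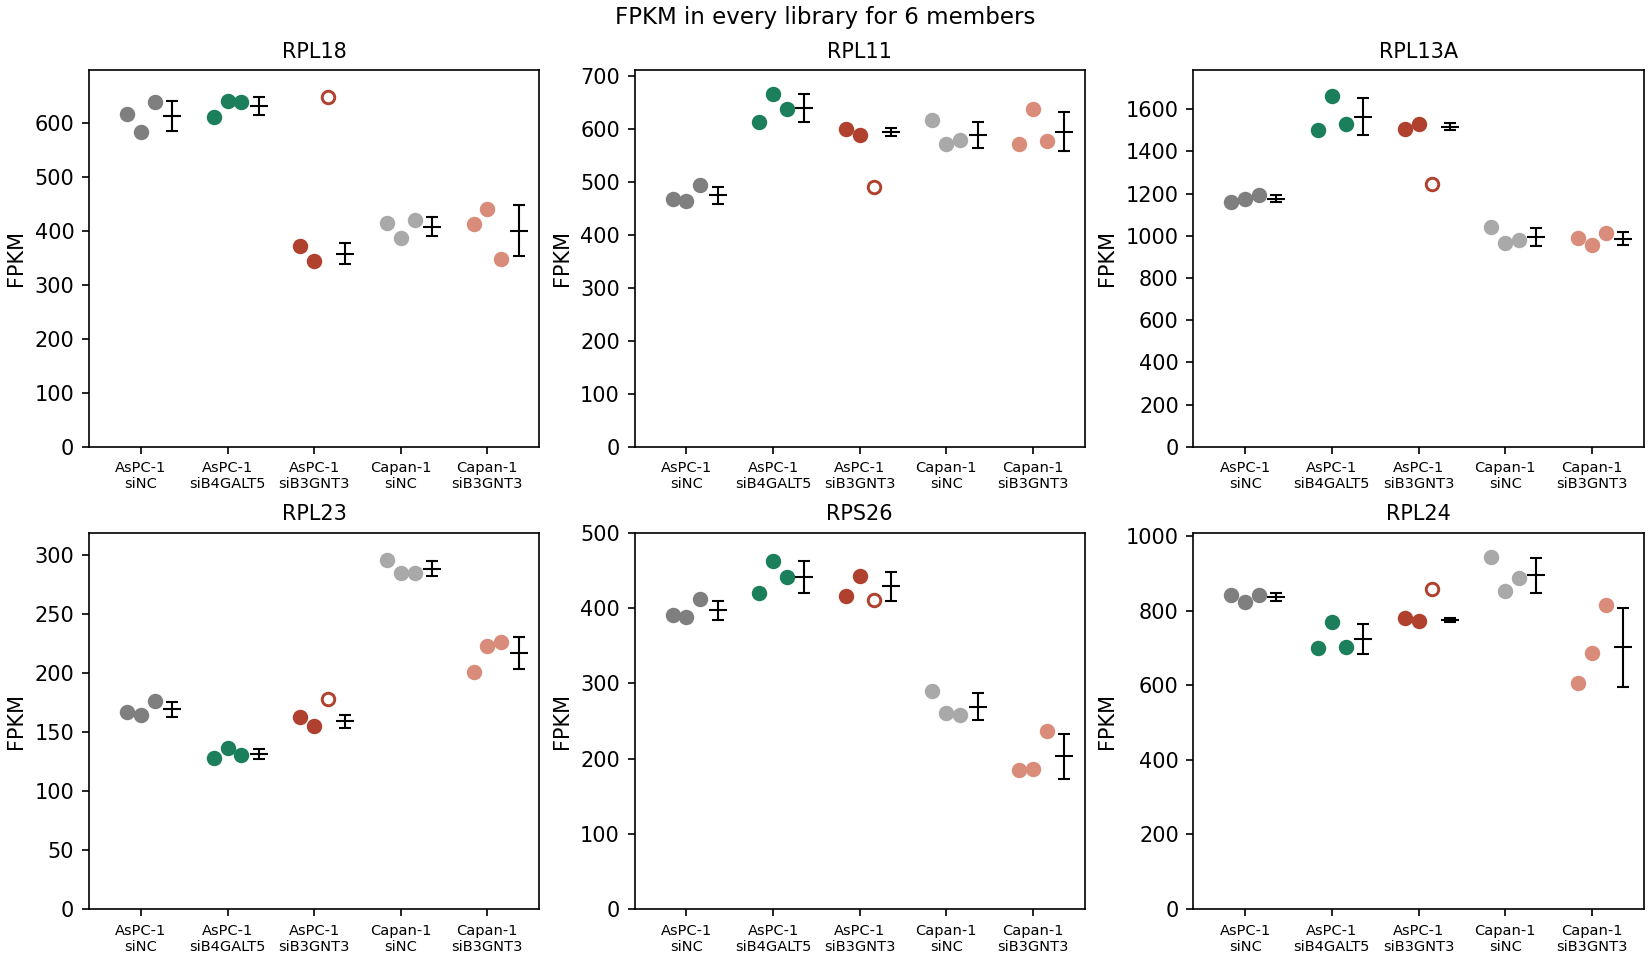
FPKM of RPL18, RPL11, RPL13A, RPL23, RPS26 and RPL24 in each of the 15 libraries, by group, with the axis from 0; bars give mean and SD without the open point, which is the library labelled AsPC-1 siB3GNT3 replicate 3. In AsPC-1 RPL18 is low in siB3GNT3 replicates 1 and 2, RPL11 and RPL13A are high in both AsPC-1 knockdown groups, and the open points lie at or near siNC.

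After B3GNT3 knockdown in AsPC-1, taken from replicates 1 and 2, most members again stayed near the middle and RPL18 stood out. The median log2 change was 0.03 over members and 0.07 over all 10775 genes, with SDs of 0.19 and 0.46. Of the 76 members 28 (36.8%) were called, against 52.9% of all genes. Up were 18 and down 10, against 32.5% and 20.4% of all genes. Groups did not overlap in 50 members, against 75.8% of all genes. The 345 other high genes had a median of -0.11, with 19.4% risen and 43.8% fallen. Median-ratio scaling gave 9 up and 24 down and a common sum 30 up and 3 down, as the median of all genes moved to -0.00086 and 0.15. Of all genes 2816 were up and 2836 down among 10756 with the first, and 4355 and 1675 among 10786 with the second. The number called was 17 without siNC replicate 1 and 15 without siB3GNT3 replicate 2, where the lone remaining library is assumed to vary like the other groups. With the library labelled replicate 3 put back no member was called by limma, nor was any gene of the table, and 10 members had an unadjusted p under 0.05. This comparison uses the same siNC libraries as that of B4GALT5, so like values in both are not independent.

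RPL18, a large subunit protein (chr19:48615331-48619178, GRCh38.p14), was at 617, 584 and 640 FPKM in siNC and at 372 and 345 FPKM in siB3GNT3 replicates 1 and 2. Both knockdown libraries lay far below each control, at 58.4% of the siNC mean. The log2 change was -0.78 ± 0.055 (adjusted p = 6.2e-06, limma). The library labelled replicate 3 held 649 FPKM, and siB4GALT5 held 612, 642 and 639 FPKM, both near siNC. With replicate 3 in the group the change was -0.49 and the adjusted p 0.17. Set directly against siB3GNT3, siB4GALT5 was higher in RPL18 by 0.82 ± 0.055 (adjusted p = 9.8e-06, limma).

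RPL18, RPS10, RPS21 and RPL13A left the family by the centred rule, 4 of 76 members against 40.1% of all genes, and the same count left with the second centring. RPS10, a protein at the mRNA entry that ZNF598 marks with ubiquitin when ribosomes collide, was at 2.83, 2.71 and 3.03 FPKM in siNC and at 1.44 and 1.93 FPKM. This is a change of -0.53 ± 0.10 (adjusted p = 0.0019, limma) at a level where few reads stand behind a value. RPS21 of the small subunit went from 162, 157 and 186 FPKM to 152 and 119 FPKM (-0.32 ± 0.10, adjusted p = 0.025, limma). It rested on siB3GNT3 replicate 2, without which the change was -0.14 and the adjusted p 0.27. It was also lost without siNC replicate 3, at -0.25 and an adjusted p of 0.082. RPL13A rose to 1507 and 1529 FPKM (0.37 ± 0.05, adjusted p = 0.00027, limma), and its centred difference of 0.33 fell just under 0.30 without siNC replicate 3. Without siB3GNT3 replicate 1 the rule gave 9 members in place of 4.

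Other members that rose in siB3GNT3 were RPL11 at 600 and 589 FPKM (0.32 ± 0.05, adjusted p = 0.00059, limma), RPL3 at 1142 and 1166 FPKM, and RPL28 at 91.6 and 89.9 FPKM. RPL3, which closes the peptidyl transferase centre, was at 901, 901 and 974 FPKM in siNC (0.32 ± 0.05, adjusted p = 0.0006, limma). Directly against siB4GALT5 it was the higher of both knockdowns, by 0.18 ± 0.05 (adjusted p = 0.018, limma). RPS3, at the mRNA entry, fell from 817 to 835 FPKM to 729 and 677 FPKM (-0.23 ± 0.049, adjusted p = 0.0032, limma). In all, 9 of 76 members differed between both knockdowns, against 35.2% of all genes. RPS10 was higher with siB4GALT5 (0.81 ± 0.10), and RPL23 (-0.27 ± 0.053) and RPS27 (-0.27 ± 0.061) were lower. The count was 5 without siNC replicate 1 and 4 without siB3GNT3 replicate 2. By the centred rule 6 members left between the knockdowns, against 29.4% of all genes, and 2 did with the second centring.

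In Capan-1 the siRNA against B3GNT3 left most members near siNC, with RPS26, RPL23 and RPL24 lowest and none called up. The median log2 change was -0.04 over 76 members and 0.02 over all 11493 genes, with SDs of 0.13 and 0.35. Members called lower numbered 11 (14.5%), 7 large and 4 small, against 14.2% of all genes called lower and 32.9% called either way. Among the 345 other high genes the median was -0.11, and 28.7% were called lower and 9.28% higher. The members' share fallen was thus near that of all genes and below that of genes of like level, a difference that was not tested. Groups did not overlap in 25 members, against 50.1% of all genes. Median-ratio scaling gave 0 up and 14 down and a common sum 2 up and 10 down. Of all genes 1906 were up and 1917 down among 11482 with the first, and 2455 and 1404 among 11490 with the second. The members' median was -0.0010 under a common sum and -0.0124 under one without mitochondrial mRNAs, so a shift of the whole family has no settled size. The count rests on few libraries: it was 2, 3 and 4 without siNC replicate 1, 2 and 3, and 4, 6 and 21 without siB3GNT3 replicate 1, 2 and 3. Over all genes siB3GNT3 replicate 3 lay 0.34 to 0.35 from siNC, nearer than replicates 1 and 2 (0.38 to 0.45).

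RPL23 was at 295, 285 and 284 FPKM in Capan-1 siNC and at 201, 223 and 226 FPKM in siB3GNT3, without overlap (-0.41 ± 0.064, adjusted p = 0.0028, limma). It was also the member that fell most with the siRNA against B4GALT5 in AsPC-1, while siB3GNT3 in AsPC-1 gave 163 and 155 FPKM against 164 to 176 FPKM (-0.09 ± 0.053, adjusted p = 0.18, limma). RPS26, which lies at the mRNA exit, went from 290, 260 and 258 FPKM to 185, 186 and 237 FPKM (-0.41 ± 0.10, adjusted p = 0.018, limma). Its call was lost without siNC replicate 1 or 2 or siB3GNT3 replicate 2, at adjusted p of 0.075, 0.052 and 0.063. RPL24 went from 944, 853 and 887 FPKM to 605, 686 and 815 FPKM (-0.36 ± 0.10, adjusted p = 0.031, limma). In both genes siB3GNT3 replicate 3 was the knockdown library nearest siNC. RPL24 lost its call without any library other than siB3GNT3 replicate 3, with adjusted p up to 0.11 and changes from -0.39 to -0.26. RPS25 went from 1042 to 1118 FPKM down to 785 to 897 FPKM (-0.32 ± 0.07, adjusted p = 0.01, limma), and kept its call with each library left out.

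By the centred rule RPL23 alone left the family in Capan-1 (-0.38), 1 of 76 members against 21% of all genes. That call was lost without siNC replicate 1, 2 or 3 or siB3GNT3 replicate 1, with adjusted p up to 0.11, and 8 members left without siB3GNT3 replicate 3. With the second centring RPS26 (-0.37) and RPL24 (-0.32) left too.

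Members with well-known roles of their own were read next. RPL5, the partner of RPL11 in the 5S particle, was at 696 to 721 FPKM in AsPC-1 controls, 696 to 778 FPKM in siB4GALT5 and 746 and 692 FPKM in siB3GNT3 (0.06 ± 0.050 and 0.02 ± 0.056, adjusted p = 0.37 and 0.82, limma). The difference between RPL11 and RPL5 was not itself tested. Of the stalk proteins that recruit elongation factors, RPLP0 rose in both AsPC-1 knockdowns, from 1883 to 1981 FPKM to 2225 to 2315 FPKM (0.23 ± 0.037) and to 2302 and 2317 FPKM (0.27 ± 0.041; adjusted p = 0.00055 and 0.00058, limma). RPLP2 showed 0.01 ± 0.042 and 0.05 ± 0.047 there, at 855 to 926 FPKM in siNC. RPSA, also known as a laminin receptor, rose from 789 to 858 FPKM to 938 to 985 FPKM and to 924 and 955 FPKM (0.24 ± 0.045 and 0.21 ± 0.05, adjusted p = 0.0013 and 0.0062, limma). In siB3GNT3 its call was lost under median-ratio scaling (0.12, adjusted p = 0.051) and without siB3GNT3 replicate 2 (0.19, adjusted p = 0.056). RPLP1 had 0.16 after B4GALT5 knockdown (adjusted p = 0.024, limma), a call lost without siNC replicate 2 or siB4GALT5 replicate 2 (adjusted p up to 0.098) and under median-ratio scaling (0.08, adjusted p = 0.21), and 0.06 in siB3GNT3. That call was also lost without a filter, without the intensity trend and with the library labelled replicate 3, at adjusted p of 0.085, 0.056 and 0.061. RPS6, the S6 kinase substrate, had 0.14 after B4GALT5 knockdown (adjusted p = 0.039, limma), a call lost without siNC replicate 1 or 2 or siB4GALT5 replicate 1 or 2 (adjusted p up to 0.12) and under median-ratio scaling (0.06, adjusted p = 0.33), and stood at 0.04 in siB3GNT3 and -0.15 in Capan-1, neither called. The same 3 settings ended its call too, at adjusted p of 0.091, 0.081 and 0.096. RPL41, the smallest member, had changes of -0.04, -0.01 and -0.06 in the 3 knockdown comparisons, none called.

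Members with and without a tract at their annotated start had close medians. Some members without one had a C and T stretch at or near that start. The comparison thus cannot show whether a tract matters for the change. After B4GALT5 knockdown the median log2 change was 0.04 over 45 tested members with a tract and 0.05 over 16 without, and in Capan-1 it was -0.06 and -0.04. In AsPC-1 siB3GNT3 the values were 0.04 and -0.0024. Coding length did vary with the change in AsPC-1. Of the 38 members at or below the median coding length of 472.5 bases 6 rose after B4GALT5 knockdown, and of the 38 longer members 20 rose. After B3GNT3 knockdown 2 and 16 rose. All genes were split at their own median length of 1398 bases, a cut unlike that of members. After B4GALT5 knockdown 31.1% of shorter and 39.7% of longer genes rose, and 27.4% and 37.5% after B3GNT3 knockdown. For a like cut, 4417 other genes in the length range of members were split at 472.5 bases. After B4GALT5 knockdown their shorter and longer genes had median changes of -0.10 and 0.04, against 0.01 and 0.14 in members. After B3GNT3 knockdown these were -0.06 and 0.03, against -0.05 and 0.13 in members. Spearman's rho between coding length and change was 0.30 and 0.37 over members and 0.11 and 0.15 over 9964 genes, and in Capan-1 it was -0.22 over members and 0.16 over 10692 genes. These are descriptions across genes that share libraries, and FPKM itself divides by transcript length.

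The largest differences among members lay between the lines. In siNC, Capan-1 was lower than AsPC-1 for 50 of 76 members and higher for 13, 63 called (82.9%) against 78.1% of all 12236 genes. Of all genes 34.5% were lower and 43.6% higher. Under a common sum of FPKM the split of members was 41 lower and 24 higher, against 3450 and 6208 of all 12258 genes. Libraries of both lines did not overlap in 65 members, 15 of them higher in Capan-1, against 84.7% and 46.9% of all genes. By the centred rule 54 members left the family, against 81.1% of all genes. All genes were shifted there by the members' centre, and 78.1% were called without centring. The median difference was -0.35 over members and 0.09 over all genes, and the members' median minus that of all genes was -0.45 to -0.42 under the 3 other scalings. The 345 other high genes had a median of -0.24, with 53.6% lower and 33.6% higher. The large subunit stood at -0.53 and the small subunit at -0.22, the median of 45 and 31 genes.

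RPL7A, on the solvent side of the large subunit, was at 1869, 1832 and 1951 FPKM in AsPC-1, and Capan-1 had 726, 685 and 673 FPKM (-1.44 ± 0.056, adjusted p = 1.4e-11, limma). RPS15, in the head of the small subunit, was at 700 to 722 FPKM and 266 to 283 FPKM (-1.35 ± 0.07). RPL8 (-1.23 ± 0.074), RPS28 (-1.21 ± 0.094) and RPL29 (-1.21 ± 0.061) came next. In the other direction RPL19 was at 704, 712 and 732 FPKM in AsPC-1 and 1656, 1568 and 1599 FPKM in Capan-1 (1.17 ± 0.04, adjusted p = 4e-12, limma). RPL23 was at 164 to 176 FPKM and 284 to 295 FPKM (0.77 ± 0.054). RPS29 (0.59 ± 0.12), RPS12 (0.52 ± 0.089) and RPL22 (0.48 ± 0.061) were also higher in Capan-1. No library of the lower group reached the higher group in RPL7A, RPS15, RPL19 or RPL23.

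These differences went with chromosomal position. For 72 members with at least 5 tested neighbours within 1 Mb, the difference between lines had a Spearman's rho of 0.74 with the median difference of those neighbours, other members left out. Over 10494 other genes the same rho was 0.47. In the 3 knockdown comparisons it was 0.03, 0.15 and 0.11, over 69, 69 and 71 members. RPL19 and RPL23, both on chromosome 17, had neighbour medians of 1.255 (35 genes) and 1.27 (26 genes). RPL8 was at -1.23 beside a median of -1.22 over 43 neighbours, and the 4 members of chromosome 8 were all lower, at a median of -1.13. RPL7A had 20 neighbours at a median of -0.78, of which 18 were called lower. The sign of the difference was that of the neighbour median in 51 of the 72 members and the opposite in 21, of which 20 were lower in Capan-1. Among the latter were RPL37A (-0.56 beside 1.21), RPL37 (-0.68 beside 0.79), RPL26 (-1.12 beside 0.06) and RPS15A (-0.91 beside 0.13), chosen after their values were seen. RPS28 had a neighbour median of only -0.06, and RPL22 was the one member that was higher beside a lower median, -0.15. Neighbours share libraries and overlap between members, so no p is given, and DNA copy number was not measured here.

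**Figure D5:**
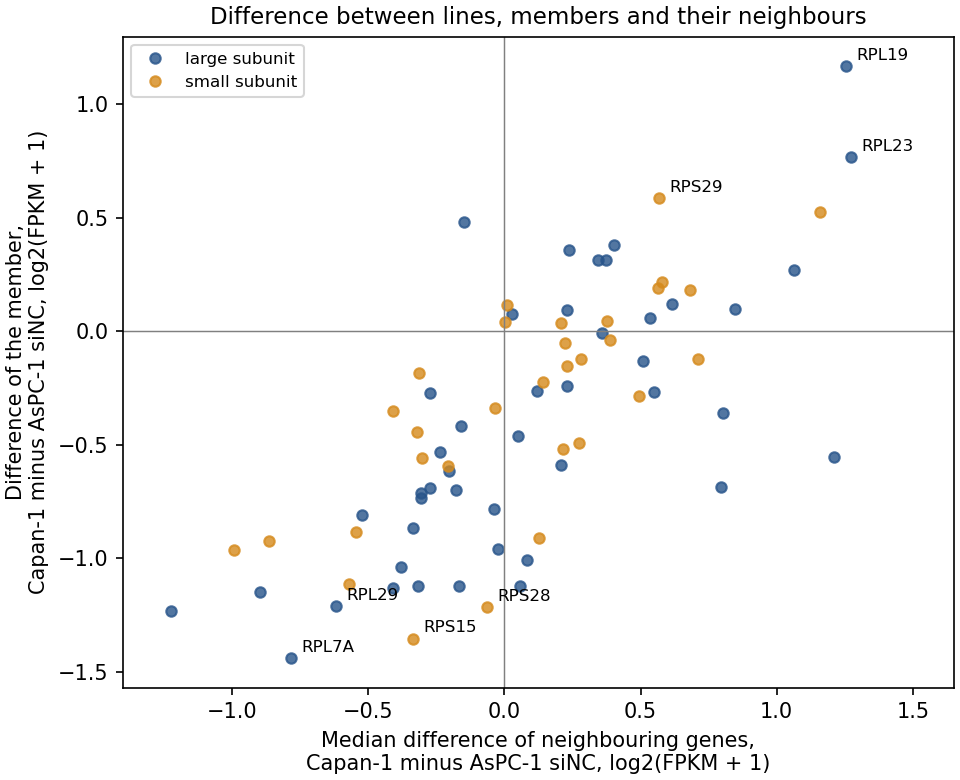
Difference between Capan-1 and AsPC-1 siNC in log2(FPKM + 1) for the 76 tested members (vertical). The horizontal axis gives the median of the same difference over tested non-member genes within 1 Mb. Large subunit members are in blue and small subunit members in orange. RPL15, RPS3A, RPS6 and RPS24, with fewer than 5 such neighbours, are drawn but are not among the 72 members of the text. Members with neighbours lower in Capan-1 are mostly lower themselves, and RPL19 and RPL23 lie at the upper right.

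The response to the siRNA against B3GNT3 differed between the lines for 18 of 76 members (23.7%), against 32.8% of all genes, tested as the interaction in a fit of both lines without AsPC-1 replicate 3. In 2 members the change was higher in Capan-1 and in 16 lower, against 13.8% and 19% of all genes. Median-ratio scaling gave 7 and 11, against 2186 and 1896 of all 12216 genes. A common sum gave 1 and 27, against 1505 and 2668 of all 12258 genes. RPL18 had the largest difference, 0.74 ± 0.11 (adjusted p = 0.00028, limma), since Capan-1 gave 415, 388 and 420 FPKM in siNC and 413, 440 and 348 FPKM in siB3GNT3. RPS26 (-0.53 ± 0.13, adjusted p = 0.0063), RPL23A (-0.44 ± 0.077) and RPL13A (-0.38 ± 0.073) lay on the other side (limma). With the library labelled replicate 3 the count was 7, and RPL18 stood at 0.46 with an adjusted p of 0.25.

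Of the ribosomal protein genes outside the naming rule, 8 were tested in AsPC-1 and 9 in Capan-1. After B4GALT5 knockdown 5 rose and 1 fell, where 35.2% of all genes rose and 23% fell. In AsPC-1 siB3GNT3 3 rose and 4 fell, against 32.5% and 20.4% of all genes. In Capan-1 none rose and 3 fell, against 18.7% and 14.2%. RPL22L1, a paralogue of RPL22, rose from 7.48, 6.78 and 8.33 FPKM in AsPC-1 siNC to 13.2, 13.02 and 12.2 FPKM in siB4GALT5 and to 13.7 and 13.05 FPKM in siB3GNT3 replicates 1 and 2, with 7.71 FPKM in replicate 3. The log2 changes were 0.70 and 0.75 (adjusted p = 5.0e-05 and 7.9e-05, limma). In Capan-1 siNC had 7.46 to 7.94 FPKM and siB3GNT3 11.9, 11.1 and 6.09 FPKM, which overlapped (adjusted p = 0.34, limma). RPL22 itself had changes of -0.09 in both AsPC-1 comparisons, which were not called. RPL7L1, a nucleolar relative of RPL7, rose with siB4GALT5, from 42.5 to 43.8 FPKM to 54.2 to 57.4 FPKM (0.36), and fell with siB3GNT3 to 31.7 and 33.6 FPKM (-0.39) and in Capan-1 from 41.2 to 41.9 FPKM to 26.5 to 30.5 FPKM (-0.50). RPL26L1 rose in both AsPC-1 knockdowns (0.52 and 0.46) from 22.6 ± 2.27 FPKM in siNC. RPL39L was at 21.3 ± 1.41 FPKM in Capan-1 siNC and at 0, 0.035 and 0.035 FPKM in AsPC-1 siNC.

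Lists of genes that serve the ribosome were read beside the members, by their counts. Of 26 other mRNAs known to carry a TOP start 11 rose and 3 fell after B4GALT5 knockdown, where 35.2% of all genes rose and 23% fell. In AsPC-1 siB3GNT3, where 32.5% of all genes rose and 20.4% fell, 9 rose and 4 fell. In Capan-1, where 18.7% of all genes rose and 14.2% fell, none rose and 5 fell. These shares also stand behind the counts that follow. EEF1A1, the elongation factor that delivers aminoacyl-tRNA, went from 1088, 1109 and 1128 FPKM in AsPC-1 siNC to 192 and 189 FPKM in siB3GNT3 (-2.53 ± 0.043, adjusted p = 2.9e-09, limma), with 1099 FPKM in replicate 3. In Capan-1 it went from 1551 to 1616 FPKM to 1013 to 1317 FPKM (-0.43 ± 0.094, adjusted p = 0.011, limma). NOP53, a 60S assembly factor, rose in both AsPC-1 knockdowns, from 69.6 FPKM to 110 and 139 FPKM on average (0.65 and 0.99).

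Of 76 tested ribosome assembly factors 31 (40.8%) rose and 9 (11.8%) fell after B4GALT5 knockdown, against 35.2% and 23% of all genes. In AsPC-1 siB3GNT3 17 (22.4%) rose and 14 (18.4%) fell, against 32.5% and 20.4%, with medians of 0.07 and -0.0048. RRP12, needed to export both subunits, rose in both (0.73 and 0.75), from 16.4 FPKM to 27.9 and 28.2 FPKM on average. In Capan-1, 1 of 77 rose and 26 (33.8%) fell, against 14.2% of all genes, at a median of -0.15, with DDX21, a helicase of rRNA processing, lowest, from 65.7 FPKM to 26.2 FPKM (-1.31, adjusted p = 0.00037, limma). Of 34 subunits and factors of RNA polymerases I and III 13 (38.2%) rose and 6 (17.6%) fell after B4GALT5 knockdown, 10 and 6 in AsPC-1 siB3GNT3, and 1 and 3 in Capan-1. TAF1D of the polymerase I factor SL1 rose most, from 29.8 FPKM to 64.3 FPKM (1.08) and in siB3GNT3 to 60.2 FPKM (0.99). Among 77 mitochondrial ribosomal proteins 11 (14.3%) rose and 21 (27.3%) fell in each AsPC-1 comparison, and none rose and 26 (33.8%) fell in Capan-1, at a median of -0.15 against -0.04 for the cytosolic members. Of 11 genes around MYC and p53, 9 rose and 1 fell after B4GALT5 knockdown, 6 rose and 1 fell in AsPC-1 siB3GNT3, and 6 rose and none fell in Capan-1, where 35.2%, 32.5% and 18.7% of all genes rose. MYC, which drives ribosomal protein transcription, rose by 0.38 and 0.35 in AsPC-1. In Capan-1, where no cytosolic member was called up, MYC went from 29.3 to 32.2 FPKM to 80.2, 67.8 and 40.4 FPKM (0.95, adjusted p = 0.012, limma). Other genes of this list rose too, among them MXD1 by 1.55 and 1.13 in AsPC-1 and MNT by 0.40 in Capan-1. A link between this list and the members was not tested. Of 18 chaperones and importers of ribosomal proteins 2 (11.1%) rose and 6 (33.3%) fell after B4GALT5 knockdown, against 35.2% and 23% of all genes, 1 rose and 6 fell in AsPC-1 siB3GNT3, and 1 rose and 6 fell in Capan-1. Of 17 tested genes of mTORC1 and TOP control 6 (35.3%) rose and 3 fell, 8 (47.1%) rose and 2 fell, and 1 rose and 5 (29.4%) fell in the same order, with MTOR at -0.59 after B4GALT5 knockdown and LARP1 at 0.50 in AsPC-1 siB3GNT3. Of 19 ribosome quality control genes 10 (52.6%) rose and 2 fell, 7 (36.8%) rose and 1 fell, and none rose and 3 (15.8%) fell, with ZNF598 at 0.51 and 0.34 in AsPC-1.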

How the data were processed

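RNA sequencing of 15 libraries was used as 1 gene table. The values are FPKM as deposited by the authors. Per the submitters' processing notes, Bowtie2, RSEM 1.3.1 and DESeq2 1.4.5 were used with GRCh38, with no role given for each, and no source used here names the annotation. Read counts were not used here, so no counting interval is given. Values were taken as log2(FPKM + 1), which understates the change of low genes.

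Tests covered genes that reached 1 FPKM in 3 or more libraries of the fit and were made with limma 3.58.1 (R 4.3.3) with an intensity trend, with Benjamini-Hochberg adjustment over all genes tested. The AsPC-1 fit held 8 libraries, the Capan-1 fit 6 and the fit of both lines 14, since the library labelled AsPC-1 siB3GNT3 replicate 3 was set apart in each. No columns of other samples were present. A gene left the family as defined in the text. Genes were named by rule: the targets, members that left, the highest and lowest, members of fixed roles, up to 5 per direction with the largest change, difference between lines or interaction, and up to 4 per further list by p; not each is described, and 1 member is not reported here by name. RPL39L, RPL37A, RPL37, RPL26 and RPS15A fall outside the rule and were chosen after their values were seen. The members and the 14 lists (311 of 312 names found) were chosen with earlier results of these data known. Gene positions and start sequences come from RefSeq (GRCh38.p14).

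On simulated data with changes in known genes, 92.0% of 1.5-fold changes were found in the B4GALT5 setting. In the AsPC-1 B3GNT3 setting 90.0% were found, and 98.0% in Capan-1. Of 1.25-fold changes 76.0%, 68.0% and 72.0% were found in the same order. In the real data, root mean square log2 distances over all genes were 0.14 to 0.15 between siNC replicates of each line. They were 0.15 to 0.27 within siB4GALT5, 0.15 between AsPC-1 siB3GNT3 replicates 1 and 2, and 0.18 to 0.31 within Capan-1 siB3GNT3. Whether the rates hold at the wider of these distances was not tested. Alternatives were pseudocount 0.1, no filter, a filter of 5 FPKM, 3 scalings, no trend, a replicate block, fits of the groups compared only, each library left out, other centrings and sizes of 0.2 and 0.5. Summaries used Python 3.11.15, pandas 2.3.3 and scipy 1.17.1.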

Additional observations from a re-analysis of the deposited data

Results flagged for a closer look

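Among the 18 members called, those with the largest differences per direction are given. Members whose response to the siRNA against B3GNT3 differed between AsPC-1 and Capan-1 by the interaction test, taken as the change in Capan-1 minus that in AsPC-1 on the log2 scale, were RPL18 (0.74), RPS21 (0.41), RPS26 (-0.53), RPL23A (-0.44), RPL6 (-0.38), RPL13A (-0.38) and RPS23 (-0.37). In RPL18 and RPS21 the lower value lay in AsPC-1. RPS21 lost its call with an adjusted p of up to 0.26 when libraries were left out 1 at a time, in 10 of 14 such fits. When AsPC-1 siB3GNT3 replicate 3 was added, the adjusted p was 0.25 for RPL18, 0.22 for RPS21, 0.056 for RPL23A and 0.10 for RPL13A. The part of markers, depth and mitochondrial share in these differences was not tested.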

How the results depend on the processing

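No called gene value changed sign under the alternatives run; of the single-gene values 3277 kept their direction and side of the threshold, 242 lost the call and 21 gained it. Members called were, without a filter, 14 (B4GALT5), 15 (B3GNT3, AsPC-1), 3 (B3GNT3, Capan-1) and 4 (between knockdowns), and without the trend 21, 17, 6 and 4. With the library labelled AsPC-1 siB3GNT3 replicate 3 they were 13 and 0 in AsPC-1, 2 between knockdowns and 7 for the interaction, members leaving after B3GNT3 knockdown were 0 and the mean share there was 12.9%. The fit of only the groups compared called 5 between knockdowns, and a common sum 28 for the interaction. The median change was -0.0227, -0.0564 and -0.0723 by median-ratio scaling, 0.15, 0.12 and -0.0010 by a common sum, and in Capan-1 -0.0124 by a common sum without mitochondrial mRNAs. Members leaving numbered 18 (B4GALT5) and 14 (B3GNT3, AsPC-1) at a size of 0.2, and 1, 2 and 0 at 0.5. Centring on both subunit medians gave 3 (B4GALT5) and 2 (Capan-1), on the median deviation 4 and 3, and in Capan-1 no filter or one of 5 FPKM gave 2. With mitochondrial mRNAs out of the denominator the mean shares were 15.8% (AsPC-1 siNC), 16.4% (siB4GALT5), 16.6% (siB3GNT3), 11.9% (Capan-1 siNC) and 11.7% (Capan-1 siB3GNT3). With each library left out, members called ranged from 16 to 37 (B4GALT5), 15 to 33 (B3GNT3, AsPC-1), 2 to 21 (Capan-1) and 4 to 13 (between knockdowns), members leaving from 5 to 10 (B4GALT5), 3 to 9 (B3GNT3, AsPC-1) and 0 to 8 (Capan-1), the median change in Capan-1 from -0.0723 to -0.0191, and large minus small subunit from -0.0371 to 0.0415 (B3GNT3, AsPC-1). The cause of these moves was not tested. As a check of pairing, 10 pairs of libraries with the same replicate number had correlations of deviations from -0.07 to 0.07, none over 0.1. These numbers were thus not taken to pair libraries. They are those of the titles, and some library names carry other numbers. The pairs also share libraries, so the check cannot exclude another pairing. A block by the title numbers called 5 members in Capan-1 in place of 11. Absolute depth is unknown, which limits RPL36A, RPS10 and RPL17 most.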
